A study of Musca domestica with 16 samples.

Results

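The comparison set the heads of YM males (strain CSaY, 3 libraries) against the heads of IIIM males (strain CS, 3 libraries), in unmated house flies, Musca domestica, 4 to 6 days old. Both strains were kept at 25 °C with 12 h of light and 12 h of dark. In YM males the male determiner lies on the Y chromosome, and in IIIM males it lies on chromosome III. The sources used here do not say how else the genotypes differ or how many flies entered a library, so the strain background and the place of the determiner cannot be told apart. Genes were taken into the comparison when the higher male head group reached at least 1 FPKM (fragments per unit length of transcript, scaled to library size), which held for 9786 of the 14631 genes in the authors' deposited table. The whole series has 16 mRNA libraries, with testes, ovaries and female heads of the same 2 strains beside the male heads. The 3 genes listed at 0 in 1 strain in both male tissues, but not in the other strain, had the reverse pattern in the female head libraries, as given with the values of the female heads.

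In the house fly a dominant factor switches the embryo to the male pathway, and natural populations carry it on different chromosomes. The switch acts through the splicing of the transformer gene, which in turn controls genes that shape sexual traits, including those of the head. The head holds the brain and eyes together with fat body, a tissue that makes yolk proteins, antimicrobial peptides and detoxifying enzymes.

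The deposited table gives 1 FPKM value for each group, not 1 for each library, so no spread between the 3 libraries of a group can be given and read depth is unknown. A gene is called different here when the q value of the YM and IIIM male heads in the authors' deposited table lies below 0.05. In whole heads, fewer cells of a type and less RNA per cell cannot be told apart. Log2 ratios are of FPKM + 1, YM minus IIIM, and understate the difference of genes with low values. The labelled tissue was checked with pdf, the gene for a neuropeptide of clock neurons, which stood at 87.3 FPKM in YM heads and 63.2 FPKM in IIIM heads, against 0.103 FPKM in YM testes and 0.274 FPKM in IIIM testes. The lists fixed for eye and muscle genes had no matching gene symbol and could not be used for that check. The sums of all FPKM values were 1082300 in YM heads and 1244260 in IIIM heads, and 9538 genes reached 1 FPKM in YM heads and 9506 in IIIM heads.

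Of the 9786 genes, the authors tested 9441 and left 345 without a q value. They called 873 genes (9.25% of those tested), of which 320 were higher in YM heads (3.39%) and 553 were lower (5.86%). Differences of at least 2-fold on the scale of FPKM + 1 were found in 307 called genes (3.25%), 72 higher and 235 lower. The genes called higher had a median of 13.4 FPKM in YM heads and 7.42 FPKM in IIIM heads, with log2 ratios between 0.43 and 3.61 (median 0.74). The genes called lower were more abundant, with a median of 21.8 FPKM in YM heads and 45.8 FPKM in IIIM heads, and their log2 ratios lay between -5.04 and -0.49 (median -0.91). The median log2 ratio over all 9786 genes was -0.0015. None of the 4845 genes below 1 FPKM had been tested (0 of 4845). At that limit LOC101901664 lay just inside, at 0.980 FPKM in YM heads and 1.0 FPKM in IIIM heads, and LOC101898415 lay just outside, at 0.999 FPKM in YM heads and 0.436 FPKM in IIIM heads.

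**Figure D1:**
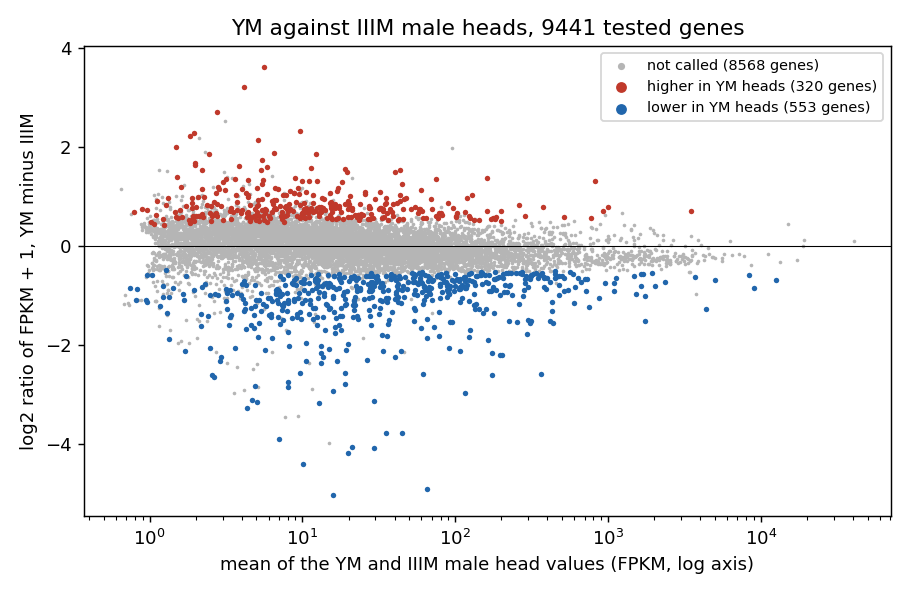
Log2 ratio of FPKM + 1 (YM minus IIIM male heads) of each of the 9441 tested genes against the mean of the 2 group values in FPKM on a log axis. Red points are the 320 genes called higher in YM heads, blue points the 553 called lower and grey points those not called, and at high levels most coloured points lie below the line at 0.

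The genes with the largest ratios in YM heads were a small set on chromosomes III and V and on unplaced scaffolds, and most have no counterpart or several counterparts in Drosophila. LOC101898334 on chromosome V, whose ortholog group has no Drosophila member, stood at 11.2 FPKM in YM heads and was listed at 0 in IIIM heads. LOC101896119 and LOC101896817, neighbours on chromosome III, stood at 8.27 and 5.49 FPKM in YM heads, and both were listed at 0 in IIIM heads. LOC101893070, on an unplaced scaffold and in no ortholog group, stood at 16.8 FPKM in YM heads and 2.57 FPKM in IIIM heads. An exact 0 in such a table can be a failed estimate, so no fold is given against it. Among the called genes, 6 were listed at 0 in IIIM heads and 8 were listed at 0 in YM heads.

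The largest falls included genes of the testis and genes of a pair of small families. LOC101888455 was listed at 0 in YM heads and stood at 31.9 FPKM in IIIM heads, and its levels in testes were 26192 FPKM in YM males and 28635 FPKM in IIIM males. LOC101894025 (listed at 0 in YM heads, 20.2 FPKM in IIIM heads) and LOC101889585 (listed at 0 in YM heads, 14.1 FPKM in IIIM heads) had 10591 and 13824 FPKM in YM testes, and 11821 and 13044 FPKM in IIIM testes. To see whether such genes moved together, 131 genes were taken that had at least 100 FPKM in both testis groups and were listed at 0 in both female head libraries, a list chosen after values were seen. Their summed level was 3.90 FPKM in YM heads and 85.5 FPKM in IIIM heads, with 29 of the 131 above 0 in YM heads and 43 above 0 in IIIM heads. The authors tested 3 of the 131 in heads, the 3 genes just named, and all 3 were called lower. Without those 3 genes the sums were 3.90 FPKM in YM heads and 19.4 FPKM in IIIM heads. The part of testis RNA in these 3 calls was not tested.

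Beyond those, LOC101900280 was 39.2-fold lower in FPKM without the added 1, at 3.25 FPKM in YM heads and 127 FPKM in IIIM heads. Its log2 ratio of FPKM + 1 was -4.92. LOC101899430 stood at 1.15 FPKM in YM heads and 38.5 FPKM in IIIM heads. Both lie on scaffold NW_004765966, which has no chromosome in the table. They belong to different ortholog groups, and the genes of both groups were low together. In group 308, whose Drosophila ortholog is FBgn0014454, 3 of the 4 tested genes were called lower in YM heads. LOC101901821 had 2.35 FPKM in YM heads and 56.3 FPKM in IIIM heads, and LOC101887361 had 1.73 FPKM in YM heads and 23.8 FPKM in IIIM heads. The fourth gene, LOC101900106, missed the threshold, with 0.756 FPKM in YM heads and 18.0 FPKM in IIIM heads (q = 0.115 in the authors' deposited table). In group 309, whose Drosophila ortholog is FBgn0031942, 3 of the 4 tested genes were also called lower. LOC101900526 had 25.4 FPKM in YM heads and 207 FPKM in IIIM heads, and LOC101900178 had 1.20 FPKM in YM heads and 14.9 FPKM in IIIM heads. The fourth, LOC101900004, also missed it, with 0.303 FPKM in YM heads and 3.76 FPKM in IIIM heads. All 8 tested genes of the 2 groups thus had lower values in YM heads, and 6 of them passed the authors' test.

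Called genes of 1 ortholog group mostly had the same direction. Of the 723 ortholog groups with at least 1 called gene, 66 had at least 2, and groups with 1 house fly gene could not. Among these 66 groups, all called genes were lower in YM heads in 45, all were higher in 9, and calls went both ways in 12. Of all calls 63.3% were lower, and 77.3% of the calls of genes with several house fly copies. Agreement within groups was not tested against these shares. The sources used here do not say how reads were split among similar copies, so single copies have uncertain levels and are not independent of each other. The groups described here were chosen after their values were seen. Their counts stand beside 9.25% called over all tested genes, 3.39% higher and 5.86% lower. Of the tested genes with several copies in both species, 15.9% were called, 12.3% lower and 3.58% higher.

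The group with the most calls was group 1426, with 33 house fly genes, several of which lie side by side. Of its 22 tested genes, 12 were called lower in YM heads and 0 higher, and the median log2 ratio over the 22 was -1.24. LOC101901101 stood at 68.4 FPKM in YM heads and 321 FPKM in IIIM heads, and LOC101900922 at 61.9 FPKM in YM heads and 283 FPKM in IIIM heads. On chromosome I, scaffold NW_004765644 carried 5 of the 12 called genes between positions 161220 and 182987, and these summed to 153 FPKM in YM heads and 434 FPKM in IIIM heads. The exception in direction was LOC101890209, the most abundant gene of the group, which had no call, with 41709 FPKM in YM heads and 39107 FPKM in IIIM heads (q = 0.903 in the authors' deposited table). This gene made up most of the summed level of the 22 genes, which was 42313 FPKM in YM heads and 40737 FPKM in IIIM heads.

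Other groups of related genes were lower in YM heads as well. In group 1577, with Drosophila ortholog FBgn0037298 among others, 5 of 6 tested genes were called lower and 0 higher, with log2 ratios of the calls between -1.31 and -0.70. In group 1423, 5 of 20 were called lower and 0 higher, beside 12.3% called lower over all tested genes with several copies in both species. The 5 were led by LOC101900816 (102 FPKM in YM heads, 622 FPKM in IIIM heads) and LOC101892207 (71.5 FPKM in YM heads, 333 FPKM in IIIM heads), both on chromosome II. In group 1252, a set of abundant genes with Drosophila ortholog FBgn0011695, 3 of 7 tested genes were called lower, and 6 of the 7 lie on chromosome V and 1 on a scaffold with no chromosome. The most abundant of the 3, LOC101898540, stood at 1757 FPKM in YM heads and 2934 FPKM in IIIM heads. All 7 tested genes of that group had lower values in YM heads. Group 2060, on chromosome V and without a Drosophila member, had 3 of 4 tested genes called lower, among them LOC101889521 at 4.05 FPKM in YM heads and 23.0 FPKM in IIIM heads.

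Fewer groups were higher in YM heads. In the 3 groups with at least 3 calls and all of them higher, 10 of the 12 called genes lay on chromosome III. Of all 320 genes called higher, 137 lay there. Copies of 1 group are not independent, so no excess is read from these 12 genes. The clearest was a run of 4 neighbouring copies of group 1454 on scaffold NW_004764849 of chromosome III, between positions 137910 and 161469. Besides LOC101896119 and LOC101896817, it held LOC101896637 (3.89 FPKM in YM heads, listed at 0 in IIIM heads) and LOC101896456 (3.78 FPKM in YM heads, 0.654 FPKM in IIIM heads). The 3 other tested genes of the group lie on chromosomes II and IV, and none was called (0 of 3). The 4 copies on chromosome III had low values in every other group, at most 1.51 FPKM in testes and 0.735 FPKM in female heads. In group 1419, 5 of 36 tested genes were called higher and 0 lower, beside 15.9% called over all tested genes with several copies in both species. All 5 lie on chromosome III, where 22 of the 36 lie and where 20% of such genes were called. No excess of calls is read from this group. The largest ratio among the 5 was that of LOC101894337 (14.5 FPKM in YM heads, 5.30 FPKM in IIIM heads, log2 ratio 1.30). Group 1505 had 3 of 5 tested genes called higher, of which LOC101894565 on chromosome III stood at 233 FPKM in YM heads and 89.1 FPKM in IIIM heads. LOC101891874 of the same group lies on the X chromosome and stood at 2.98 FPKM in YM heads and was listed at 0 in IIIM heads.

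**Figure D2:**
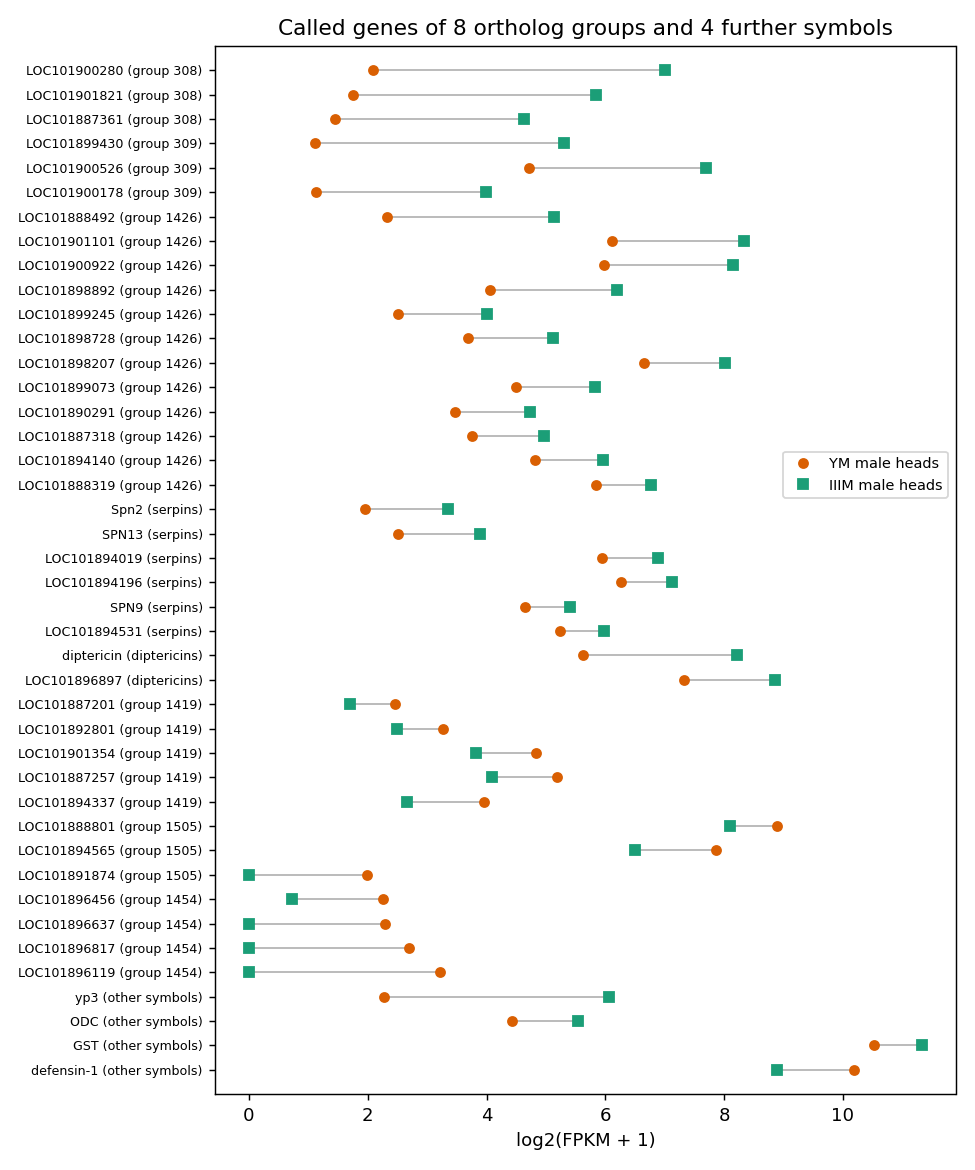
Level in log2(FPKM + 1) in YM male heads (circles) and IIIM male heads (squares) of the called genes of 8 ortholog groups and of 4 further genes with a symbol. Called genes of groups 308, 309 and 1426, the serpins and the diptericins have their circles left of their squares, and those of groups 1419, 1505 and 1454 have them right.

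Genes with a symbol made up a small share of the calls, since the reference table gives a symbol for 52 genes. Among these, 45 were tested in male heads, with 1 higher in YM heads, 7 lower and 37 not called. The yolk protein gene yp3, whose product is stored in eggs, stood at 3.82 FPKM in YM heads and 66.0 FPKM in IIIM heads. It was 17.3-fold lower in FPKM without the added 1, with a log2 ratio of FPKM + 1 of -3.80. Both tested diptericin genes, which encode peptides active against Gram-negative bacteria, were lower, and the second of them, LOC101896897, stood at 160 FPKM in YM heads and 463 FPKM in IIIM heads. Defensin-1, a peptide that acts mainly on Gram-positive bacteria, was higher, at 1171 FPKM in YM heads and 472 FPKM in IIIM heads, whereas LOC101887872 of its ortholog group was lower, at 98.9 FPKM in YM heads and 166 FPKM in IIIM heads. The 3 other tested genes of that group were not called. Calls of antimicrobial genes thus went both ways.

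Serpins block proteases, among them those of immune cascades. In the ortholog group of Spn2, SPN9 and SPN13, 6 of 9 tested genes were called lower in YM heads, 0 were called higher, and all 9 had lower values. Over all tested genes 5.86% were called lower, and 12.3% of those with several copies in both species, the category of this group. Its 6 called genes had log2 ratios between -1.39 and -0.73, with Spn2 at 2.88 FPKM in YM heads and 9.20 FPKM in IIIM heads. SPN15, in a group of its own, was not called and had a log2 ratio of -0.20. ODC, which begins the synthesis of polyamines, was lower at 20.5 FPKM in YM heads and 45.6 FPKM in IIIM heads.

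Cytochrome P450 enzymes oxidise foreign compounds, and glutathione S-transferases attach glutathione to them. In the 4 ortholog groups that hold the cytochrome P450 genes with a symbol, 1 of 39 tested genes was called lower and 0 higher. The other 38 were not called, and the median log2 ratio was -0.14. Over all tested genes 9.25% were called, and 15.9% of those with several copies in both species, the category of these groups. CYP6D8 stood at 418 FPKM in YM heads and 596 FPKM in IIIM heads and was not called (q = 0.0626 in the authors' deposited table). CYP6G4, the most abundant P450 gene with a symbol in these heads, stood at 1567 FPKM in YM heads and 1687 FPKM in IIIM heads and had no call either. CPR, the reductase that passes electrons to P450 enzymes, stood at 241 FPKM in YM heads and 292 FPKM in IIIM heads without a call. The gene named GST was lower, at 1463 FPKM in YM heads and 2572 FPKM in IIIM heads. In the group of GST-6A, 2 of 5 tested genes were lower, LOC101894873 (148 FPKM in YM heads, 285 FPKM in IIIM heads) and LOC101895555 (130 FPKM in YM heads, 241 FPKM in IIIM heads), while GST-6A itself was not called.

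Genes of nerve cells, stress and sex determination with a symbol are few, and beside the 9.25% called over all tested genes their counts are too small to read a difference from. Of 5 tested genes in the groups of the nicotinic acetylcholine receptor subunits Mda2, Mda6 and nAChRbeta3, which mediate fast signalling between insect neurons, 1 was lower, LOC101899458 at 202 FPKM in YM heads and 295 FPKM in IIIM heads. None of the 8 tested genes in the group of HSP70, a chaperone of stressed cells, was called (0 of 8). None of the 8 tested genes in the group of CPI, CYB1 and CYB2 was called (0 of 8), and none of the 3 tested genes in the group of para-like, related to the sodium channel that carries nerve impulses, was called (0 of 3). Sxl, which sets sex in Drosophila, stood at 31.6 FPKM in YM heads and 30.3 FPKM in IIIM heads. For pdf, q was 0.325 in the authors' deposited table. Of 30 gene lists drawn up for head tissue, 8 matched a gene symbol by their name patterns and 22 matched none. A list without a match does not mean that no such gene has a symbol. The patterns for serpins and for neuronal channels and receptors missed Spn2 and nAChRbeta3, among others. Most pathways of the head were therefore not analysed here.

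The direction of the calls differed with the expression level. Abundant genes were mostly called lower in YM heads, and weakly expressed genes were called in both directions. Below 10 FPKM (mean of the 2 groups), 157 genes were called higher and 127 lower, so that 44.7% of those calls were lower. That share was 55.8% with q below 0.01 in the authors' deposited table, 64.4% among differences of at least 2-fold and 53.4% without chromosome III, so no direction is read from the weakly expressed genes. At 100 FPKM and above, 27 were called higher and 153 lower, so that 85% of those calls were lower. The share of tested genes called changed little between 3 and 100 FPKM, at 8.79% for 3 to 10 FPKM, 9.11% for 10 to 30 FPKM and 8.90% for 30 to 100 FPKM. It was 7.21% below 3 FPKM, 13.0% between 100 and 1000 FPKM, and 9.42% at 1000 FPKM and above.

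Over all genes, called or not, the ratios also tilted with level. The median log2 ratio was 0.13 below 3 FPKM and also from 3 to 10 FPKM, 0.02 from 10 to 30 FPKM, -0.07 from 30 to 100 FPKM, -0.16 from 100 to 1000 FPKM and -0.24 at 1000 FPKM and above. In testes (YM minus IIIM) the medians lay between -0.01 and 0.05 up to 1000 FPKM and at 0.27 above. In female heads (CSaY minus CS, 1 library each) they lay between -0.04 and 0.02 up to 1000 FPKM and at 0.23 above. In ovaries (CSaY minus CS, 1 library each) they also ended lower than they began, at 0.11 below 3 FPKM and -0.05 at 1000 FPKM and above, with values between -0.02 and 0.01 in the classes from 3 to 1000 FPKM. The part of the scaling between the groups in the direction of the calls was not tested.

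**Figure D3:**
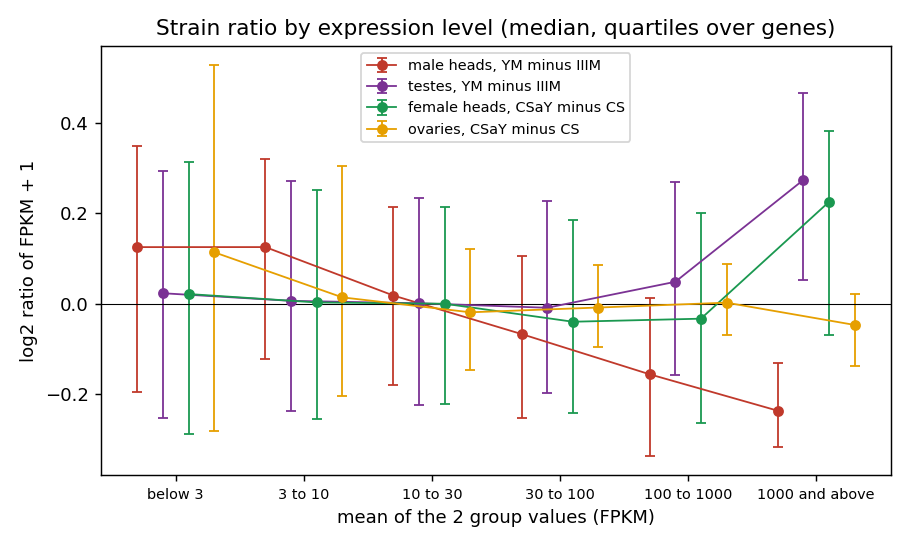
Median log2 ratio of FPKM + 1 in 6 classes of expression level (mean of the 2 group values in FPKM), with bars from the first to the third quartile over genes, for male heads, testes, female heads and ovaries. In male heads the medians run from 0.13 in the lowest class to -0.24 in the highest, where the medians of testes, female heads and ovaries are 0.27, 0.23 and -0.05.

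The most abundant called genes were lower in YM heads. LOC101896328, on chromosome V and without a Drosophila member in its group, stood at 9572 FPKM in YM heads and 15383 FPKM in IIIM heads. LOC101887669 on chromosome IV, a single-copy gene with ortholog FBgn0011693, stood at 6425 FPKM in YM heads and 11588 FPKM in IIIM heads, and at 3.90 FPKM or less in both testis groups. LOC101900425 stood at 2559 FPKM in YM heads and 6174 FPKM in IIIM heads, the largest of these falls. On the other side, LOC101896379 on chromosome III was the most abundant gene called higher, at 4304 FPKM in YM heads and 2652 FPKM in IIIM heads. Next came LOC101899302 (1271 FPKM in YM heads, 736 FPKM in IIIM heads), defensin-1, and LOC101890597 (1152 FPKM in YM heads, 707 FPKM in IIIM heads).

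Genes with several copies were called more often than single-copy genes, mainly among the genes that were lower. The table sorts genes into ortholog groups with Drosophila. Genes with 1 copy in each species (category sco) were called in 6.74% of 5685 tested genes, 177 higher and 206 lower. Genes with several copies in the house fly and 1 in Drosophila (mto1) were called in 13.5% of 827, 26 higher and 86 lower. Genes with several copies in both species (mtom) were called in 15.9% of 1314, 47 higher and 162 lower. Genes with 1 house fly copy and several in Drosophila (1tom) were close to the single-copy genes, at 7.23% of 498.

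Genes without a Drosophila member in their group (lr) were called in 11.0% of 883, 37 higher and 60 lower. Genes in no group were called in 15.4% of 234, 17 higher and 19 lower. For genes with several house fly copies (mto1 and mtom together), 11.6% of 2141 tested genes were lower in YM heads, against 3.62% of the single-copy genes. The shares called higher were 3.41% for several copies and 3.11% for a single copy. Among differences of at least 2-fold, 5.74% of the several-copy genes were lower and 1.07% higher, against 1.11% lower and 0.422% higher of the single-copy genes. The median log2 ratio was -0.10 for genes with several copies and 0.01 for single-copy genes. Several-copy genes were called more often than single-copy genes in each of the 6 classes of expression level, for example in 17.8% of 387 against 6.15% of 1398 genes at 30 to 100 FPKM, and in 21.9% of 292 against 8.58% of 688 at 100 to 1000 FPKM.

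**Figure D4:**
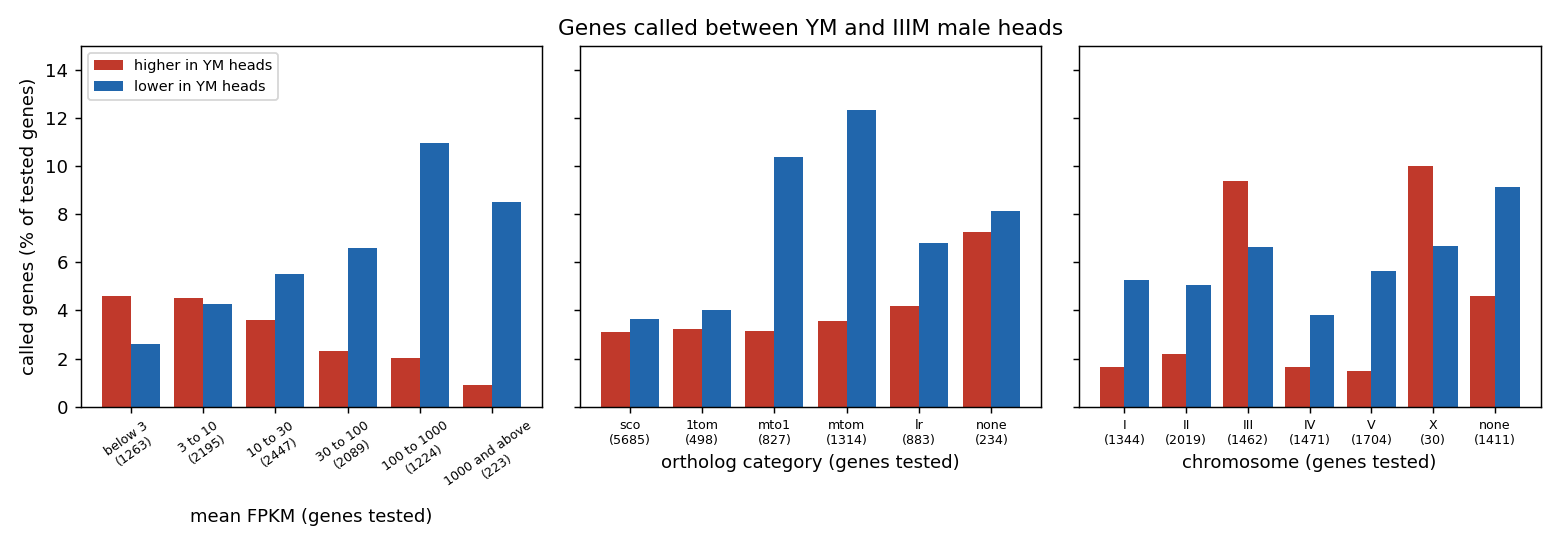
Genes called higher (red) and lower (blue) in YM heads, in percent of the genes tested, by class of mean FPKM, by ortholog category and by chromosome, with the number of tested genes in parentheses. Lower calls reach their highest share between 100 and 1000 FPKM and in category mtom. On chromosome III the share of higher calls exceeds that of lower calls at q below 0.05, but not at q below 0.01 or among differences of at least 2-fold.

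The largest differences of single-copy genes lay outside known symbols. LOC101887605 on chromosome III (ortholog FBgn0000927) stood at 0.214 FPKM in YM heads and 9.80 FPKM in IIIM heads. LOC101890439 on chromosome II (FBgn0038172) stood at 16.9 FPKM in YM heads and 107 FPKM in IIIM heads. Upward, LOC101889488 on chromosome III (FBgn0030394) stood at 8.91 FPKM in YM heads and 1.99 FPKM in IIIM heads, and LOC101887382 on chromosome IV (FBgn0035922) stood at 3.51 FPKM in YM heads and 0.454 FPKM in IIIM heads.

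Genes on chromosome III were called more often than those on the other placed chromosomes in each class of expression level, and also when single-copy genes were taken alone. Of its 1462 tested genes, 137 were higher in YM heads and 97 lower (16.0% called). On chromosomes I, II, IV and V together, 115 of 6538 were higher and 325 lower (6.73%). The share of chromosome III calls that were higher was 58.5%. It was 45.8% with q below 0.01 in the authors' deposited table, 49.4% with at least 10 FPKM and 36% with at least 2-fold. No direction is therefore read from chromosome III alone. On I, II, IV and V the shares were 26.1%, 19.3%, 21.4% and 13.7% in the same order. Chromosome III is the one that carries the male determiner in IIIM males. In single-copy genes, 85 on chromosome III were higher and 48 lower of 902 tested (14.7%), against 83 higher and 154 lower of 4595 on the other placed chromosomes (5.16%).

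Across the 6 classes of expression level, 12.7% to 17.9% of the tested genes on chromosome III were called, against 4.79% to 10.6% of those on the other placed chromosomes. The tilt with level was seen on chromosome III as well. Below 3 FPKM 20 of its genes were higher and 6 lower, and between 100 and 1000 FPKM 9 were higher and 23 lower. On the X chromosome 30 genes were tested, 3 were higher and 2 lower (16.7%). Of the 2 lower genes, LOC101891311 stood at 68.5 FPKM in YM heads and 259 FPKM in IIIM heads. Genes on scaffolds with no chromosome were called in 13.7% of 1411, 65 higher and 129 lower.

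Neighbouring genes were looked at as pairs. Of 7203 pairs of tested genes next to each other on a scaffold, both were called in 121, in the same direction in 95 and in opposite directions in 26. On chromosome III both genes were called in 46 of 1184 pairs, with 34 in the same direction and 12 in opposite directions. Beside these counts, 9.25% of all tested genes and 16.0% of those on chromosome III were called, and 63.3% of all calls were lower. Whether neighbours were called together beyond these shares was not tested. Of the 121 pairs, 43 were of 1 ortholog group (11 of the 46 on chromosome III) and 1 shared a locus. Genes that share a locus with another gene were called in 49 of 1248 (3.93%), against 10.1% of the 8193 tested genes with a locus of their own.

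Of 2238 scaffolds with a tested gene, 278 lie on chromosome III. At least 6 calls were found on 7 scaffolds, and 6 of these 7 lie on chromosome III. The counts were not scaled to the genes tested, and NW_004764514 of chromosome III had 7 calls among 74. The scaffolds described here were chosen by their calls. Of all tested genes on chromosome III, 9.37% were called higher in YM heads and 6.63% lower. Whether calls on a scaffold exceed these shares was not tested. On 4 of the 7 scaffolds all calls went the same way. Scaffold NW_004764570 had 18 tested genes, of which 9 were lower in YM heads and 0 higher, each of the 9 in a different ortholog group. LOC101894800 on this scaffold stood at 1.48 FPKM in YM heads and 40.7 FPKM in IIIM heads, and LOC101897498 at 42.4 FPKM in YM heads and 86.2 FPKM in IIIM heads. In testes 8 of these 9 genes also had lower values in YM males, and 6 of the 9 were called lower there in the authors' deposited table. In the female head libraries 0 of the 9 were called, 4 were lower and 5 higher in CSaY, and their median log2 ratio was 0.01.

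Scaffold NW_004764616 of chromosome III gave the opposite picture, with 8 of 17 tested genes higher in YM heads and 0 lower. It too was chosen by its calls, beside 9.37% called higher over chromosome III. All 8 are single-copy genes, and their log2 ratios lay between 0.52 and 1.31. LOC101898301 was first among them, at 16.2 FPKM in YM heads and 5.96 FPKM in IIIM heads. In testes 6 of the 8 had higher values in YM males and 3 were called higher there. On scaffolds NW_004764468 and NW_004764475 of chromosome III, 6 of 17 and 6 of 11 tested genes were lower and 0 were higher. Over all tested genes of that chromosome 6.63% were called lower. In testes 2 of the 6 on NW_004764468 and 3 of the 6 on NW_004764475 also had lower values in YM males, and the others had higher values. LOC101887550, on the second of these, stood at 0.439 FPKM in YM heads and 9.33 FPKM in IIIM heads. On scaffold NW_004764524, 5 of 13 tested genes were higher and 2 lower, so its calls went both ways. The 1 scaffold outside chromosome III was NW_004754940 of chromosome V, with 1 gene higher and 6 lower of 54 tested. Of all tested genes on chromosome V, 7.10% were called. Positions follow the deposited table, and the sources used here name no assembly for them.

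The genes called in male heads more often kept their direction than not in testes, and more often had the opposite direction in female heads as labelled. In testes, where the authors called 13.0% of the tested genes, 68.6% of the genes called higher in YM heads had higher values in YM testes (181 of 264 with at least 1 FPKM there). Of the genes called lower in YM heads, 44.6% had higher values in YM testes (201 of 451), and the share over all genes tested in male heads was 52.2%. The authors called 176 genes in both male tissues, which is 20.2% of the male head calls and 13.2% of the testis calls. Not all male head calls were tested in testes. Among those tested there, 66 of 260 genes higher in YM heads and 110 of 426 lower ones were called in testes. Of the genes tested but not called in heads, 797 of 7628 tested in testes were called there. Of these 176, 128 went the same way in both, 56 higher and 72 lower, and 48 went opposite ways.

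The female head comparison has 1 CSaY library against 1 CS library and shares no library with the male heads. Its calls therefore rest on no spread between libraries of a group. The authors called 0.772% of the genes tested there (73 genes). Of the genes called higher in YM male heads, 32.4% had higher values in the CSaY female head library (100 of 309). Of those called lower in YM male heads, 67.6% had higher values in the CSaY female head library (356 of 527), and the share over all genes tested in male heads was 49.0%. Across 9210 genes the rank correlation of the 2 log2 ratios was -0.18 (Spearman's rho, a description across genes, which share the libraries of each group), against 0.07 with testes across 8503 genes. The levels of the genes called lower in male heads had a median of 21.8 FPKM in YM male heads and 45.8 FPKM in IIIM male heads, with 28.7 FPKM in CSaY and 24.9 FPKM in CS female heads. Male and female values come from separate comparisons, so levels across the sexes carry any difference in scaling. With single female libraries, the dependence of the strain difference on sex was not tested.

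The strain labels of the female head libraries bear on these directions. Of the 128 genes called the same way in both male tissues, 124 had at least 1 FPKM in female heads, where 32 went the same way and 92 the opposite way. In ovaries 87 of the 128 had at least 1 FPKM, and 50 went the same way and 37 the opposite way. Just 3 genes were listed at 0 in 1 strain and had at least 1 FPKM in the other strain in both male tissues, and all 3 were reversed in female heads. LOC101900397 was listed at 0 in YM heads and testes, with 2.68 FPKM in IIIM heads and 2.09 FPKM in IIIM testes, but stood at 7.55 FPKM in the CSaY and 0 in the CS female head library. LOC101900811 was likewise listed at 0 in YM heads and testes, with 5.14 FPKM in IIIM heads and 2.11 FPKM in IIIM testes, but stood at 4.75 FPKM in the CSaY and 0 in the CS female head library. In ovaries it was listed at 0 in the CSaY library and stood at 3.02 FPKM in the CS library, the direction of the male tissues. LOC101899825 had 2.57 FPKM in YM heads and 1.29 FPKM in YM testes and was listed at 0 in IIIM heads and testes, but in female heads it was listed at 0 in the CSaY library and stood at 3.95 FPKM in the CS library. Whether the labels CSaY and CS of the female head libraries were exchanged was not tested, and every direction given for female heads holds only for the labels as deposited.

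The authors called 27 genes in both sexes, 3.09% of the male head calls and 37.0% of the female head calls. In 21 of the 27 the directions were opposite, with 17 lower in YM male heads and higher in CSaY female heads, and 4 the other way round. ODC was among the 17, with 152 FPKM in the CSaY and 47.7 FPKM in the CS female head library. LOC101889521 stood at 162 FPKM in the CSaY and 11.8 FPKM in the CS female head library, and LOC101889169 of the same ortholog group at 201 FPKM in the CSaY and 22.1 FPKM in the CS library. Among the 4, LOC101893749 on chromosome III stood at 16.0 FPKM in YM and 7.42 FPKM in IIIM male heads, against 9.87 FPKM in the CSaY and 105 FPKM in the CS female head library. Of the 12 called genes of group 1426, 11 had higher values in the CSaY than in the CS female head library, and all 6 called serpins did too. The diptericin genes had the same direction as in males, and LOC101896897 stood at 2.40 FPKM in the CSaY and 2194 FPKM in the CS female head library, a difference that was not called (q = 0.998 in the authors' deposited table). The called genes of groups 800 and 1491, 3 in each, also had the same direction in female heads as in male heads. The separate genes on scaffold NW_004764570 followed the testes, whereas group 1426 had no common direction there, with 6 of its 12 called genes lower and 5 higher in YM testes.

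**Figure D5:**
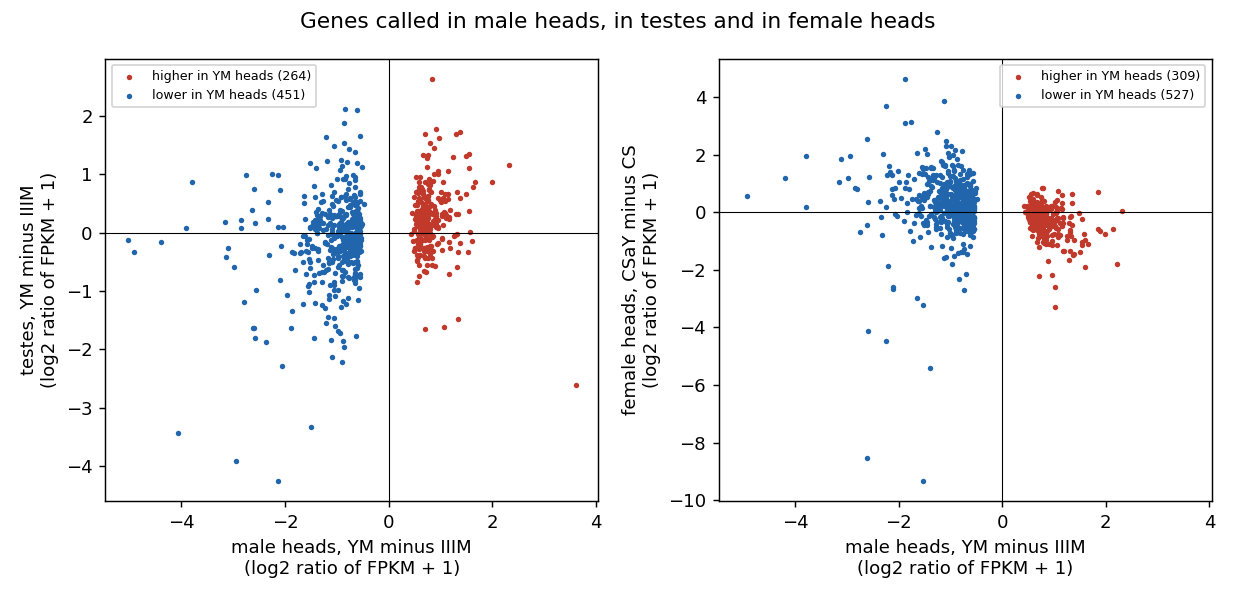
Log2 ratio of FPKM + 1 in testes (left panel, YM minus IIIM) and female heads (right panel, CSaY minus CS) against that in male heads (YM minus IIIM) for genes called in male heads with at least 1 FPKM in the other comparison. Genes lower in YM heads (blue) lie above 0 in 201 of 451 cases in testes and in 356 of 527 cases in female heads, and genes higher in YM heads (red) in 181 of 264 and in 100 of 309 cases.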

How the data were processed

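mRNA was sequenced from 3 YM and 3 IIIM male head libraries. Per the labels' protocols, samples were taken up in TRIzol, RNA was purified on RNeasy columns, and libraries came from the TruSeq kit. Tools named in the submitters' processing notes are Cufflinks 2.2.1, TopHat2 2.0.8b, Bowtie2 2.1.0.0 and CASAVA 1.8.2, with no roles and no genome build. The authors computed FPKM for each group, 1 value per strain, sex and tissue per the file headers, and 4 further FPKM columns that name no strain were not used. The score is the authors' deposited test statistic and was not used in a computation. The q-values are the authors' own, and the sources used here do not describe their adjustment. Values of single libraries were not used here, so depth, spread and a test over libraries (limma had been planned) could not be given. The 3 libraries of a male group may be technical replicates, since nothing says that they came from separate batches of flies. The female head groups have 1 library each, so their q values rest on no spread between libraries of a group.

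Log2 ratios used a pseudocount of 1 and a minimum of 1 FPKM in the higher group, in Python 3.11.15 with numpy 2.4.6, pandas 2.3.3 and matplotlib 3.10.9. Counting was tested on simulated data with 200 planted genes. Symbols were looked up in RefSeq's gene table for assembly GCF_030504385.1, where 12168 of 14631 gene IDs were found and 52 had a symbol. Starts in the deposited table were taken to count from 0, which the sources used here do not state, and were raised by 1. The members, classes and 30 gene lists were chosen with earlier results of these data known. A fixed rule names the 12 called genes with a symbol and at least 5 FPKM of largest ratio in each direction and, at any level from 1 FPKM, the 4 called genes of any kind, up to 4 of each list, 2 in each direction per ortholog category and chromosome, the 5 most abundant calls in each direction, the genes beside the 1 FPKM limit and markers. All other genes, groups and scaffolds in the text were chosen after their values were seen. A symbol of the cuticle list that matched the P450 reductase CPR by its letters was taken out. Alternatives were q below 0.01, at least 2-fold, other minimum FPKM values, a pseudocount of 0.1, centring and the chromosome by ortholog. Centring within expression classes and leaving out shared loci or chromosome III were added after seeing the data.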

Additional observations from a re-analysis of the deposited data

How the results depend on the processing

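No paired analysis was possible because the deposited values are 1 per group. For the same reason leaving out a library, the replicate block and limma were not run. With q below 0.01 in the authors' deposited table there were 500 calls, 142 higher and 358 lower in YM heads; the shares called higher fell to 1.59% for genes with several copies and 1.32% for single-copy genes, the share called lower among single-copy genes to 2.27%, and the shares called to 9.71% on chromosome III and 3.73% on I, II, IV and V. At that threshold 45.8% of the calls on chromosome III were higher in YM heads, against 58.5% at 0.05. With at least 2-fold there were 307 calls, 72 higher and 235 lower (23.5% higher). Of genes with several copies 5.74% were then lower and 1.07% higher, of single-copy genes 1.11% lower and 0.422% higher. On chromosome III 5.13% were then called, 36% of them higher, and on I, II, IV and V 2.0%, 13.7% of them higher. With at least 10 FPKM 188 genes were higher. Without chromosome III 183 genes were higher, 2.25% of genes with several copies and 1.92% of single-copy genes. Pseudocount and centring cannot alter calls made from the q value. Leaving out shared loci and assigning chromosomes by ortholog moved none of these counts or shares by over 1.5 times. Of the 57 called genes named by the rule, 10 lost their call with q below 0.01 and 12 with at least 2-fold. Depth is unknown, so no limit of detection can be given.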
